A study of Mus musculus with 2 samples.

Results

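The chaperonins are barrel-shaped machines that take an unfolded protein into a closed chamber and use ATP to help it fold. The cytosolic one, called CCT or TRiC, is built from 8 related subunits encoded by Tcp1, Cct2, Cct3, Cct4, Cct5, Cct6a, Cct7 and Cct8, and each of its rings holds a single copy of every subunit. It is best known for folding actin and tubulin and proteins with WD40 repeats, among them regulators of cell division. The mitochondrial chaperonin is a ring of Hspd1 (HSP60) with Hspe1 (HSP10), its co-chaperonin, as the lid, and it folds proteins that have been imported into the matrix.

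These 10 genes were followed through every probe set that the array annotation assigned to them. They had 26 of the 22626 non-control probe sets and made up 10 of the 12393 genes on the array. Primitive and maturing populations of haematopoietic stem cells (HSC) were compared, both sorted by flow cytometry from mouse bone marrow after a short culture and left untreated. The labels name one population primitive and the other maturing, and each was measured on 1 array. The mouse strain and age, the number of animals pooled and the surface markers used for the sort were not stated in the labels. The RNA of both populations was copied with a primer on its poly(A) tail, then PCR amplified, selected for size and cloned into a phage library before labelling, so each array reads a cloned cDNA library, and any step of that route can change the share of a transcript.

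With 1 array per population there was no spread between replicates to set a difference against and no test was possible. Each ratio therefore describes this pair of libraries. Values are MAS5 intensities on a linear scale in arbitrary units, and ratios are log2 of primitive over maturing, so a negative ratio means a lower signal in primitive HSC. Intensities under a floor of 441.0, the median of all non-control probe sets on both arrays, were raised to it, so a ratio with 1 array at the floor is a bound and the true difference can be larger. Of 12393 genes, 8852 stood above the floor on at least 1 array and are called measured. Where a gene had several probe sets, the brightest was taken for the gene. A lower signal in sorted cells can come from less RNA per cell or from fewer cells that make it, and these cannot be told apart.

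By the brightest probe set of each gene, all 8 cytosolic subunits had a lower signal in primitive HSC. For Cct3, 2 of its 6 probe sets went the other way. The mitochondrial ring gene Hspd1 was almost equal on the arrays. Its lid gene Hspe1 was higher in primitive HSC, except on its brighter probe set after scaling to the hybridisation controls (-0.04). All 10 genes were above the floor on both arrays. The median log2 ratio was -1.33 over the 8 cytosolic subunits, with a range from -3.08 to -0.42, and -1.02 over all 10 genes. Over the 8852 measured genes the median was 0.07, with quartiles at -0.67 and 0.69. Among those genes 47.3% were higher in maturing HSC, against 9 of the 10 chaperonin genes. At least 2-fold higher in maturing HSC were 5 of the 10, where 17.6% of all measured genes were. At least 4-fold higher there were 2 of the 10, where 4.69% of all measured genes were. By these gene values none of the 10 reached 2-fold in the other direction, where 15.6% of all measured genes did.

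The chaperonin genes had signals well above the floor, so they were also set beside genes of like brightness. The 657 genes that cleared the floor on each array and whose mean log2 signal lay within the range of the 10 had a median ratio of 0.17. Of them 16.0% were at least 2-fold and 4.26% at least 4-fold higher in maturing HSC. Genes of this brightness thus leaned slightly toward primitive HSC as a class, while the cytosolic subunits leaned toward maturing HSC.

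**Figure D1:**
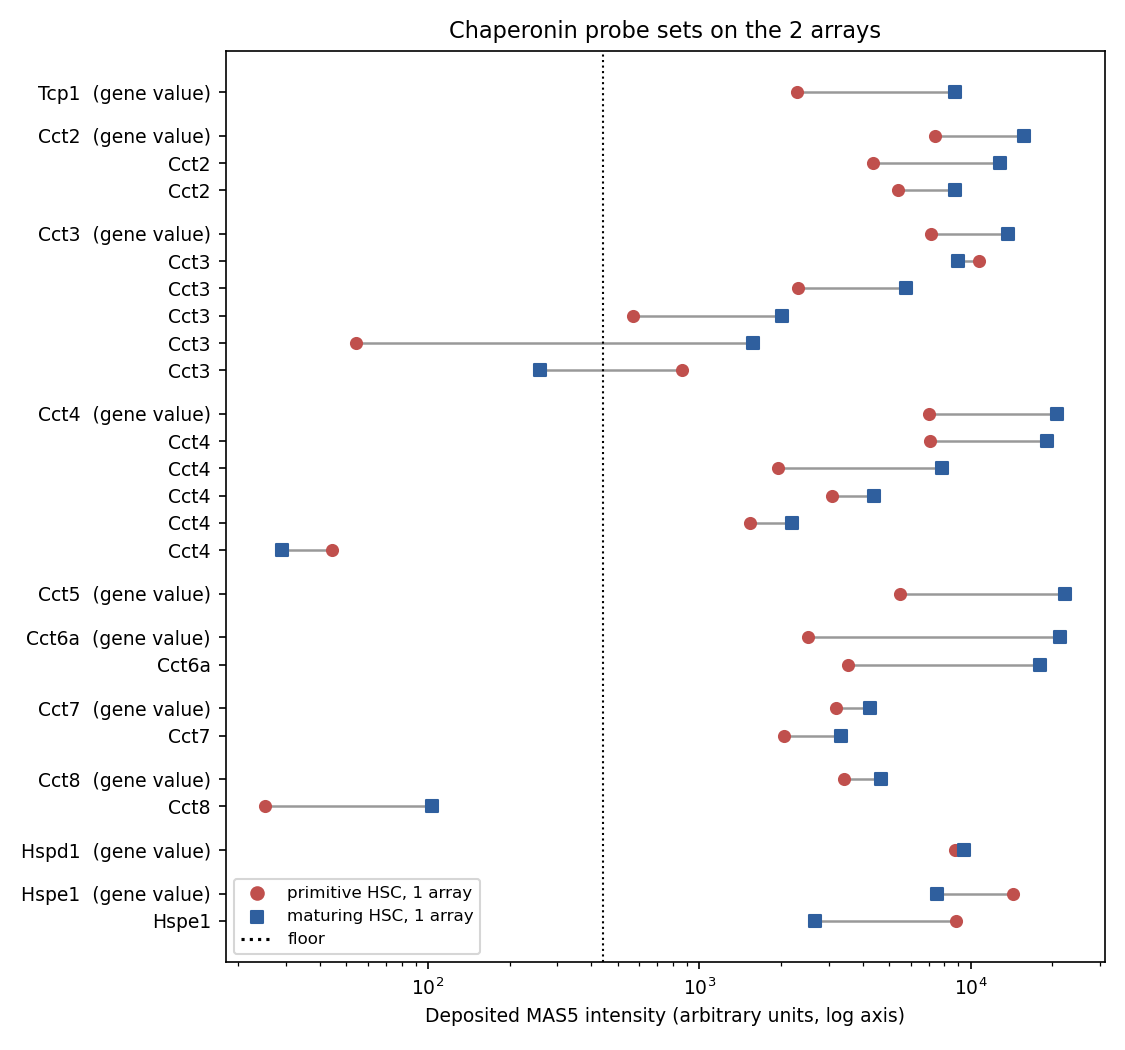
Deposited MAS5 intensity (arbitrary units, log axis) of all 26 chaperonin probe sets, with 1 row per probe set, a circle for the primitive array and a square for the maturing array; the dotted line is the floor of 441.0. The square lies to the right of the circle in nearly every row of the cytosolic subunits, and to the left in both rows of Hspe1.

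Cct6a, the zeta subunit, was the furthest apart. Its brighter probe set read 2519 in primitive and 21275 in maturing HSC, a log2 ratio of -3.08 or 8.45-fold. Its other probe set read 3541 and 18068, a log2 ratio of -2.35. Both therefore put Cct6a more than 4-fold higher in maturing HSC. Of all measured genes, 0.508% had a lower ratio than its brighter probe set.

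Cct5, the epsilon subunit, and Tcp1, the alpha subunit that gave the complex its older name, followed. Cct5 read 5508 in primitive and 22214 in maturing HSC, which is 4.03-fold. Tcp1 read 2292 and 8729, which is 3.81-fold. Each has a single probe set, so neither value has a second reading on the array. The Cct5 ratio of -2.01 lay just past 4-fold and the Tcp1 ratio of -1.93 just short of it, so the count of 2 genes past 4-fold separates values that differ little.

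Cct4, the delta subunit, was lower in primitive HSC in all 5 of its measured probe sets. The brightest read 7005 in primitive and 20750 in maturing HSC, a log2 ratio of -1.57. Another bright one read 7058 and 19035, a ratio of -1.43. The remaining measured probe sets ran from -2.01 to -0.51. A sixth probe set, at 44.3 and 29.1, was under the floor on both arrays. The Cct4 readings thus shared a direction and differed in size from 1.42-fold to 4.03-fold.

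Cct2, the beta subunit, was lower in primitive HSC in all 3 of its probe sets. They read 7369 and 15737, 4377 and 12817, and 5384 and 8753 in primitive and maturing HSC, with log2 ratios of -1.09, -1.55 and -0.70. Only the last stayed under 2-fold.

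Cct3, the gamma subunit, was the member whose probe sets disagreed. Its brightest read 7130 in primitive and 13765 in maturing HSC, a log2 ratio of -0.95. The next brightest, close behind it in mean signal, read 10730 and 8999, which is 1.19-fold higher in primitive HSC. Of 6 probe sets, 4 were higher in maturing and 2 in primitive HSC. One of the former, at 54.5 and 1573, gave a bound of at least 3.57-fold toward maturing HSC, and one of the latter, at 860.2 and 258.1, gave a bound of at least 1.95-fold toward primitive HSC. The direction of Cct3 therefore rests on which probe set is read, although the median over its probe sets was -1.14.

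Cct7 and Cct8, the eta and theta subunits, were the nearest to equal among the cytosolic subunits. Cct7 read 3186 in primitive and 4264 in maturing HSC, a log2 ratio of -0.42. Its other probe set read 2043 and 3339, a ratio of -0.71. Cct8 read 3402 and 4684, a ratio of -0.46, and its other probe set, at 25.2 and 103.5, was under the floor on both arrays. Ratios as low as that of Cct7 are common on these arrays, since 32.0% of measured genes had a lower one.

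**Figure D2:**
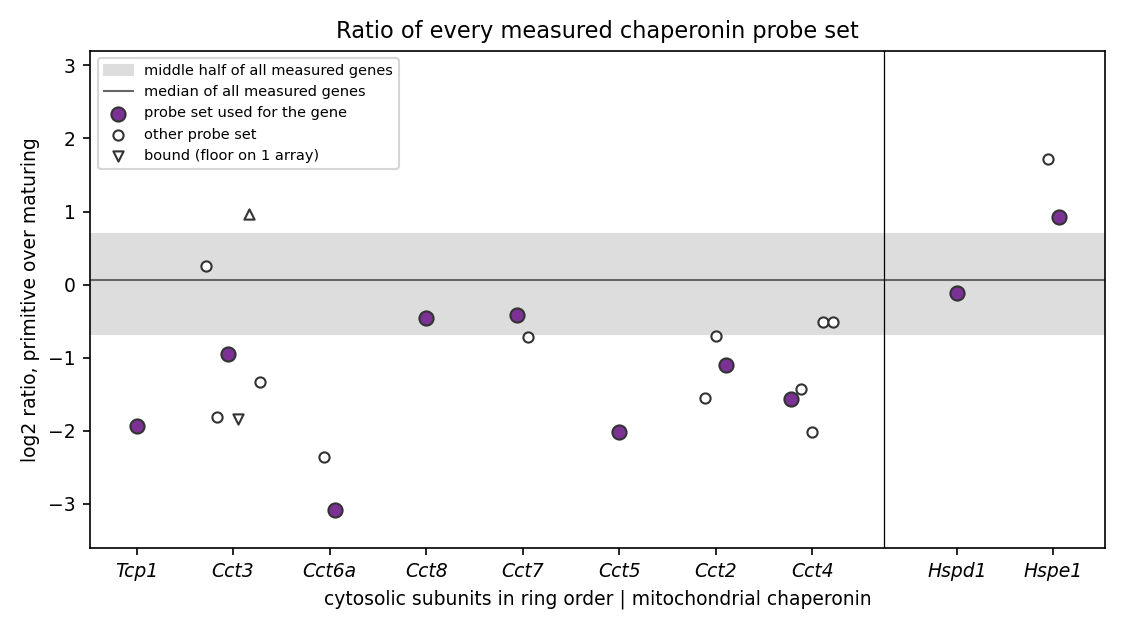
Log2 ratio of primitive over maturing for the 24 measured chaperonin probe sets, with the cytosolic subunits in the order in which they stand in the ring and the mitochondrial pair at the right; triangles are bounds, the grey band spans the quartiles of all 8852 measured genes (-0.67 to 0.69) and the line is their median. Cct6a lies lowest at -3.08, Cct8 beside it in the ring is at -0.46, and both Hspe1 probe sets lie above the band.

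Over probe sets, 20 of the 24 measured ones were higher in maturing HSC, where 50.7% of all 12964 measured probe sets were, and 12 of the 24 were at least 2-fold higher there, against 18.5%. The 4 higher in primitive HSC were 2 of Cct3 and both of Hspe1. Probe sets whose name marks them as able to bind several transcripts (ending in _s_at or _x_at) had a median ratio of -1.09 over 11, and the rest had -0.95 over 13. Both kinds thus leaned the same way.

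The subunits stand in fixed equal numbers in the complex, yet their ratios were far from equal. Around the ring the order is Tcp1, Cct3, Cct6a, Cct8, Cct7, Cct5, Cct2 and Cct4. The largest difference, that of Cct6a, stands next to one of the smallest, that of Cct8. The SD of the 8 ratios was 0.90 on the log2 scale. Probe sets of the same chaperonin gene differed with an SD of 0.65, over 18 probe sets of 6 genes, and over 1318 genes of the whole array that SD was 0.82. Both SDs used only probe sets above the floor on both arrays, so the 2 Cct3 bounds, of -1.83 and 0.96, were left out. Without those bounds, the spread among subunits was above that among readings of 1 chaperonin gene. It was close to that among readings of 1 gene over the whole array. An order among Cct2, Cct3 and Cct4, or among Tcp1 and Cct5, is finer than these readings resolve, while Cct6a was separated from Cct7 and Cct8 in all of its readings.

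Of the mitochondrial pair, Hspd1 had the sign of the cytosolic ring at a small ratio and Hspe1 had the opposite sign. Hspd1 read 8719 in primitive and 9422 in maturing HSC, a log2 ratio of -0.11, from its only probe set. Hspe1 read 14298 and 7496 on its brighter probe set, which is 1.91-fold higher in primitive HSC. Its other probe set read 8824 and 2671, which is 3.30-fold higher there, a ratio of 1.72. The brighter one can bind several transcripts and the other is not marked so. Scaled to the hybridisation controls, which are spiked in at a fixed amount and were brighter on the primitive array by a median of 0.97, the brighter Hspe1 probe set stood at -0.04 and Hspd1 at -1.09. In that setting the median of all measured genes was -0.74. That scaling shifts all genes alike, and the direction of Hspe1 on that probe set turned with it.

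Hspd1 and Hspe1 lie head to head on chromosome 1 and share the sequence between them. In the RefSeq promoter table (GRCm38.p6) Hspd1 has 2 start sites on the minus strand, 311 bases apart, and Hspe1 has 1 on the plus strand. The Hspe1 start lies 216 bases from the inner Hspd1 start, and 95 bases inside the transcript that begins at the outer one. The bases between the Hspe1 start and the inner Hspd1 start, chr1:55087933-55088147, are shown in the direction of Hspe1. They lie before Hspe1 and before the inner start of Hspd1, but inside the Hspd1 transcript that begins at the outer start. The ratios of Hspd1 and Hspe1 differed. Capitals mark TTCNNGAA or GAANNTTC, the paired repeat that heat shock factors bind.

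Hspd1 and Hspe1: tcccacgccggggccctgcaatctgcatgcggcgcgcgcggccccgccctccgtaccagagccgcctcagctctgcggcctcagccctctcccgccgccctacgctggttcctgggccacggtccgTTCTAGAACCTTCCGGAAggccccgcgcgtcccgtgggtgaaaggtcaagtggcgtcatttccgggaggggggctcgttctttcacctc

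The capitals form a run of overlapping repeats that also holds a longer form, 3 alternating repeats of TTC and GAA with 2 bases between each. Searched on both strands, the longer form was present in 2 of the 12 windows of chaperonin genes, and those windows of Hspd1 and Hspe1 overlap. Of all 32851 promoter windows of 300 bases in the table, 0.603% held it. The shorter form was present in 5 of the 12 windows (1 each of Cct2, Cct5, Cct6a, Hspd1 and Hspe1) and in 15.1% of all windows. The table matched 9 of the 10 genes, Cct4 being the other, and Cct2, Cct5 and Hspd1 had 2 windows each. A match is a stretch of letters and shows no binding.

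The cytosolic subunits with the largest and the smallest ratio are shown next, each over the 250 bases before its start on the plus strand (GRCm38.p6, Cct6a at chr5:129787106-129787355 and Cct7 at chr6:85451255-85451504). Capitals mark the CCAAT box, CCAAT or ATTGG, an element of many housekeeping promoters.

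Cct6a: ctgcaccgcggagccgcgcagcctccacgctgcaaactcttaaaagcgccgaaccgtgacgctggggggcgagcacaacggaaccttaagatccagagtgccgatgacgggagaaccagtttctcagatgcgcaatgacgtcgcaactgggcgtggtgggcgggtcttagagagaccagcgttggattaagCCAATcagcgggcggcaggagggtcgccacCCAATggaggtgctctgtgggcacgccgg
Cct7: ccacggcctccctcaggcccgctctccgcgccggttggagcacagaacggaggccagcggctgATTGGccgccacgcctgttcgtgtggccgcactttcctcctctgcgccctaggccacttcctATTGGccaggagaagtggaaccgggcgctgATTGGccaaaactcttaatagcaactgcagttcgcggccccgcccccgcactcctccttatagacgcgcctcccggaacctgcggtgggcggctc

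Cct6a had 2 CCAAT boxes and Cct7 had 3, so the pair at opposite ends of the range both carried the element. It was present in 5 of the 12 windows (1 each of Cct3, Cct6a, Cct7, Hspd1 and Tcp1), near its share of 37.4% of all windows. The GC box, GGGCGG or CCGCCC, was present in 11 of the 12 windows, against 35.7% of all windows, and the ETS core, CCGGAA or TTCCGG, in 7 of the 12, against 14.9%. The E-box CACGTG was present in 1 of the 12, of Hspd1, against 7.15% of all windows. Because the Hspe1 window and 1 window of Hspd1 overlap, a stretch they share counts in both. Member windows held from 47.3% to 73.3% G and C. That content was not set beside all windows, and whether it bears on the GC box and ETS counts was not tested.

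Upstream of the cytosolic chaperonin stands prefoldin, which hands it unfolded actin and tubulin. Its list, with related subunits, had 8 measured genes, of which 5 were higher in primitive and 3 in maturing HSC. Over all measured genes 47.3% were higher in maturing HSC. The prefoldin median was 0.52, against -1.33 for the cytosolic subunits. Pfdn5 read 38805 in primitive and 10181 in maturing HSC, a log2 ratio of 1.93, and Pfdn2 was 2.82-fold higher in primitive HSC. Vbp1, the subunit also called prefoldin 3, went with the chaperonin at -1.48, and Pfdn6 had a bound of -2.36. Scaled to the hybridisation controls, the prefoldin median turned to -0.46. The prefoldin list thus split between the populations.

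Genes listed as cofactors of the cytosolic chaperonin, such as the phosducin-like proteins, had 4 measured members with a median of -0.84. Of these 3 were higher in maturing HSC, where 47.3% of all measured genes were. Pdcl had a bound of -1.59, and Ipo4, Pdcl3 and Txndc9 had ratios of -0.88, -0.80 and 0.44. Of genes for proteins related to CCT, Mkks had a bound of -1.28 and was the only one measured. Cct6b, the zeta subunit known from testis, was under the floor on both arrays.

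Among its clients, 6 of 10 measured tubulin genes had the higher signal in maturing HSC, against 47.3% of all measured genes, with a median of -0.07. Tubb5 read 4897 in primitive and 18887 in maturing HSC, a ratio of -1.95, and Tuba4a stood at -1.35, while Tubg1 and Tubb2a each stood at 1.35. Actin and actin-related genes had a median of -0.63 over 4, with Actr3 at -2.33, Actg1 at -0.83 and Actb at 0.39. WD40 proteins and other clients had 8 of 13 measured genes higher in maturing HSC and a median of -0.25, with Gnb1 at -1.82. Tubulin cofactors and related proteins had a median of 0.56 over 7, with 4 genes higher in primitive and 3 in maturing HSC. Tbcb had a bound of 3.79, Tbcel a ratio of 3.41 and Tbcd a ratio of -1.26. Over members above the floor on both arrays the median was 0.24. In the main setting the clients thus went both ways, with members of each client list on either side of 0. With quantile normalization, lowess or hybridisation control scaling, all 4 actin genes were higher in maturing HSC. Under the last, where the median of all measured genes was -0.74, so were all 12 measured WD40 and other clients. Tubulin genes there had 7 higher in maturing and 3 in primitive HSC, and the tubulin cofactor median turned to -0.42.

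On the mitochondrial side, genes for protein import and folding in the matrix had 12 of 23 measured members higher in maturing HSC, with a median of -0.38. That count is near the share of 47.3% over all measured genes. Tomm20, a receptor of the outer membrane, stood at -3.24 and Timm44, which anchors the import motor, at -2.36, while Timm17b and Pmpcb had bounds of -2.55 and -2.54. Over members above the floor on both arrays the median was 0.11. A list of proteases, mainly of the mitochondrion, had 4 of 6 measured genes higher in maturing HSC. Of the 6 values 2 were bounds, and over its members above the floor on both arrays the median was 0.05. Hspe1 at 0.93 lay above both medians of the import list, and Hspd1 at -0.11 lay between them.

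**Figure D3:**
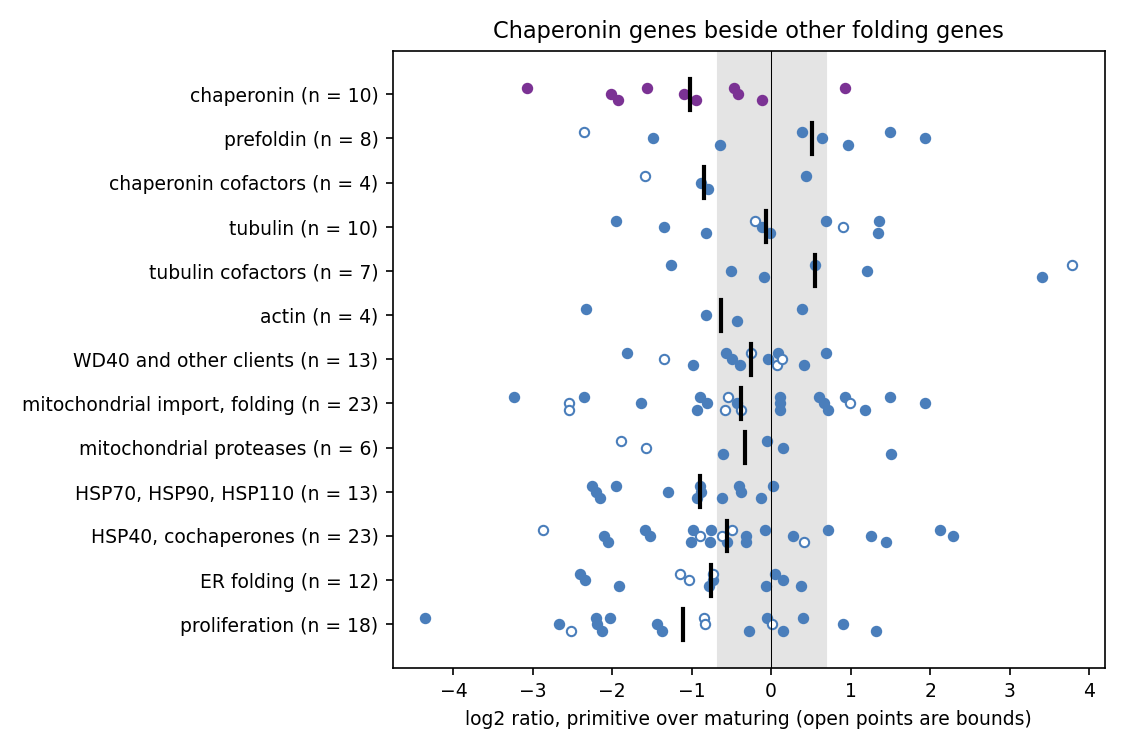
Log2 ratio of primitive over maturing for the 10 chaperonin genes and for the measured genes of 12 other lists, with 1 point per gene, open points for bounds, a bar at each median and a grey band spanning the quartiles of all measured genes. The chaperonin median of -1.02 lies beside those of the HSP70, HSP90 and HSP110 list (-0.89), ER folding (-0.76) and proliferation (-1.11), while prefoldin lies at 0.52.

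The heat shock protein and endoplasmic reticulum lists leaned the same way as the cytosolic chaperonin, while prefoldin, with its median of 0.52, did not. The HSP70, HSP90 and HSP110 genes had 12 of 13 measured members higher in maturing HSC and a median of -0.89, with Hspa14 at -2.25, Hspa4l at -2.20, Hspa4 at -2.16 and Hsph1 at -1.95. HSP40 and cochaperone genes had 16 of 23 and a median of -0.56. Folding genes of the endoplasmic reticulum had 9 of 12 and a median of -0.76. Among all measured genes 47.3% were higher in maturing HSC. Of the HSP40 and cochaperone genes, 4 were at least 2-fold higher in primitive HSC, among them Cdc37 at 2.29 and Dnajc7 at 2.13. At least 2-fold higher in maturing HSC were 6 of them. Over all measured genes these shares were 15.6% and 17.6%. At 4-fold, the HSP70, HSP90 and HSP110 list had 3 of 13 members higher in maturing HSC. The chaperonins had 2 of 10, against 4.69% of all measured genes. No test compares these lists, which were chosen with earlier results of these data known.

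Genes of cell division leaned in the same direction as the cytosolic subunits. Of 18 measured proliferation genes, 13 had the higher signal in maturing HSC and 7 passed 4-fold in that direction, with a median of -1.11. Over all measured genes those shares were 47.3% and 4.69%. For the 20 proliferation genes on the array the summed intensity was 55936 in primitive and 110399 in maturing HSC. Their part in the chaperonin ratios was not tested. Of 13 stem cell markers on the array, 10 were above the floor in each population. Neutrophil and monocyte markers were above it for 10 of 12 in primitive and 12 of 12 in maturing HSC, with a summed intensity of 168375 and 96317. By ratio or bound, 8 of them were higher in primitive and 4 in maturing HSC. Bright genes weigh most in such a sum. S100a8 read 46747 and 19525, while Mpo and Csf3r each had a bound of -2.55. B cell markers were above the floor for 2 and 6 of 8, with summed intensities of 2061 and 7167. Of the 6 measured, 5 were higher in maturing HSC. T and natural killer cell markers were above the floor for 5 and 3 of 10, with summed intensities of 56840 and 11997. Of the 6 measured, 4 were higher in primitive and 2 in maturing HSC, and Ccl5 alone read 37798 and 1511. Of erythroid markers 2 of 7 were above the floor in each. No marker was listed at 0, and their part in the chaperonin ratios was not tested.

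**Figure D4:**
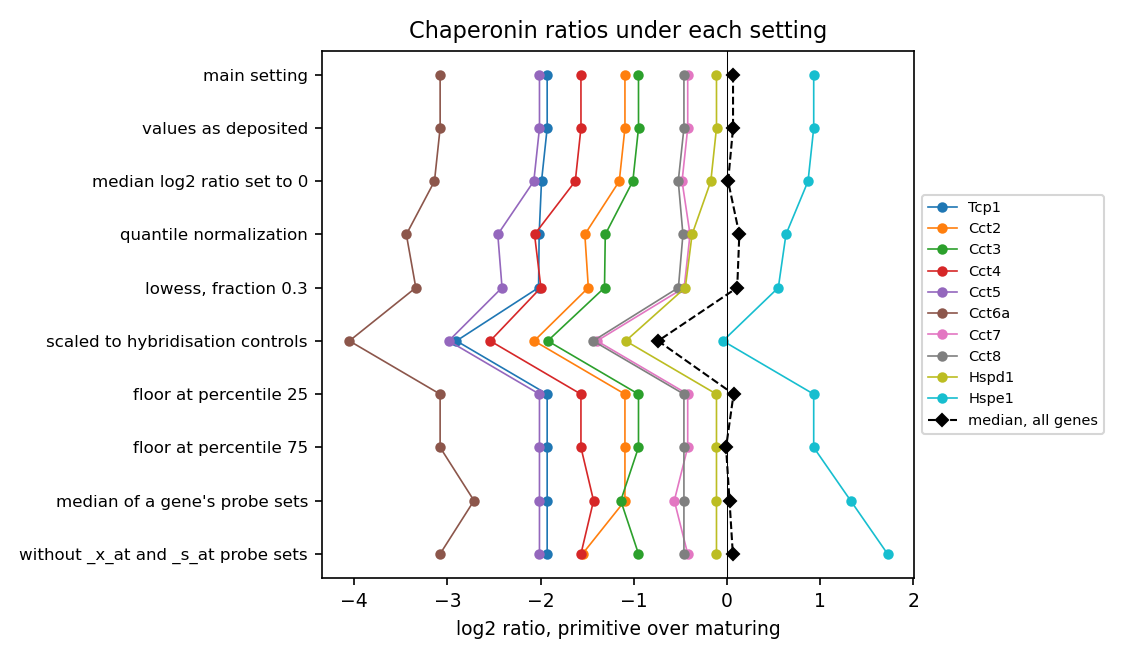
Log2 ratio of primitive over maturing for each chaperonin gene (1 line per gene) under the main setting and 9 alternatives, with the median of all measured genes as a dashed line. The 8 cytosolic subunits stay below 0 and below the median of all genes in each setting, and Hspe1 runs from -0.04 with hybridisation control scaling to 1.72 when its probe set of the _s_at kind is left out.

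By gene value, the cytosolic subunits were below 0 in all 8 cases under each of the 10 settings tried. Every setting took Cct3 from its brightest probe set or from the median of its probe sets. None took the Cct3 probe set that stood at 0.25 in the main setting, so the settings do not bear on the disagreement within Cct3. Relative to the median of all measured genes, their median lay between -1.90 and -1.31. For Hspe1 the sign was positive in every setting but the scaling to hybridisation controls.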

How the data were processed

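Signal was read on Affymetrix arrays from 1 primitive and 1 maturing HSC sample, whose groups are given by their titles. The authors deposited linear signal intensities from MAS5, per the submitters' processing notes, which name no version. MAS5 turns a probe set's probe pairs into 1 value and scales each array, so the total RNA of a cell leaves no trace in the values. Both arrays were brought to the same 2% trimmed mean, which was 1000.6 and 1000.4 as deposited, and then floored at percentile 50 (441.0). Intensities are printed as deposited and ratios come from the scaled values. A ratio with 1 side at the floor is a bound.

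Symbols came from the platform annotation, and all 10 members matched RefSeq (GRCm38.p6) through their Entrez identifiers. The 691 probe sets with several symbols named no gene. The number of arrays limits the precision, and no test was made. All members and their probe sets are named. Measured genes named from another list were taken from its 4 with the largest ratio or bound, and not all of those are named. The members and the 19 other lists were chosen with earlier results of these data known. A ratio of 2-fold or 4-fold is a description. The steps were tested on simulated data. Alternatives were other scalings, floors and choices of probe set. Python 3.11.15, numpy 2.4.6, pandas 2.3.3, statsmodels 0.14.6 and matplotlib 3.10.9 were used.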

Additional observations from a re-analysis of the deposited data

How the results depend on the processing

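Over the alternatives tried (deposited values with no rescaling, ratios centred on a median of 0, lowess at fraction 0.3, quantile normalization, scaling to 18 hybridisation controls, floors at percentiles 25 and 75, each gene's median probe set ratio, and omission of _s_at and _x_at probe sets), the median of the chaperonin genes and that of the cytosolic subunits stayed negative. With no replicates, a ratio was held to have moved when it changed by more than the SD of 0.65 between probe sets of a member. That SD leaves out the Cct3 bounds. Scaling to the hybridisation controls moved the chaperonin median to -1.996 and the cytosolic median to -2.31, raised the number of genes at least 2-fold higher in maturing HSC from 5 to 9 and the number at least 4-fold higher from 2 to 5, and turned Hspe1 to -0.0429. That scaling also moved the median of all measured genes from 0.07 to -0.74, and the share of them at least 2-fold higher in maturing HSC from 17.6% to 39.6% and at least 4-fold higher from 4.69% to 13.5%. Quantile normalization gave 4 genes at least 4-fold higher in maturing HSC, where 4.17% of all measured genes were, with Tcp1 at -2.02 and Cct4 at -2.07. Omission of _s_at and _x_at probe sets raised Hspe1 to 1.72. With 1 array per population no replicate could be left out. No paired analysis was possible because each population had 1 array. Probe sets under the floor on both arrays, 1 of Cct4 and 1 of Cct8, gave no ratio.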

Other observations

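Heat shock factor genes gave few readings beside the chaperonins. Hsbp1, which binds heat shock factor 1, read 8640 in primitive and 4650 in maturing HSC, a log2 ratio of 0.89, and Hsf4 had a bound of 0.60, while Hsf2 was under the floor on both arrays and Hsf1 was not analysed here. Control probe sets read actin and glyceraldehyde phosphate dehydrogenase transcripts near the start, in the middle and near the end. Their log2 ratios were -0.05, 0.37 and 0.32 for actin and 0.65, 0.61 and 0.69 for the dehydrogenase, so within each transcript the ratio varied by less than the SD of 0.82 between probe sets of a gene. The Cct3 readings ran from a bound of -1.83 to a bound of 0.96. That is a range over 6 probe sets, and the SD leaves bounds out, so the range and the SD are not like measures.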
